A study of Homo sapiens with 9 samples.

Results

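Antisense noncoding RNAs are transcripts read from the strand opposite another gene. Some leave a start site shared with that gene in the other direction, some end across its last exons, and some lie wholly inside it. Individual members of the class have been described as scaffolds for chromatin factors, as partners in RNA duplexes, or as by-products of transcription at open promoters, and most have no assigned function. The genes described here are the antisense noncoding RNAs that were expressed in MDA-MB-231, an established line of human breast cancer cells with mesenchymal features. They were chosen by 2 properties, an antisense biotype in the deposited annotation and a mean of at least 1 FPKM over the 9 libraries. FPKM are fragments scaled by exon length and by the size of the library. This gave 657 members out of 5583 antisense genes and 58735 genes in the table. HAS2-AS1, which was left out of the choice, averaged 0.105 FPKM and would not have passed.

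The libraries fell into 3 groups of 3, all from unmodified MDA-MB-231 cells in bulk culture. In TIS CM the cells were kept in medium taken from other cells of the line that had been made senescent with 100 ng/ml nocodazole, a microtubule-depolymerizing drug, for 72 h (TIS stands for therapy-induced senescence). In Cont CM the medium came from non-senescent MDA-MB-231 cells, and in No CM the cells had plain medium. The sample labels give 72 h in these media and the design text of the series gives 48 h, and which applies is not settled by the values. Donor and recipient cells were of the same line. Nothing states that the replicates were separate cultures, so the spread that p-values measure is that between libraries and may be technical. The labels describe capture of RNA on poly-T beads, so antisense RNAs without a poly(A) tail were not sampled.

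Between 32636708 and 39189036 fragments on genes were recovered per library, and the members together took 0.356%, 0.392% and 0.387% of them in the TIS CM libraries, against 0.364%, 0.350% and 0.378% in Cont CM and 0.354%, 0.366% and 0.403% in No CM. These shares overlapped between all groups. All 8 mesenchymal markers were present in every library (VIM averaged 365 FPKM and ZEB1 8.88 FPKM), while ESR1 and PGR, the oestrogen and progesterone receptors, reached at most 0.00801 and 0.00539 FPKM in any library. The 8 epithelial or luminal markers summed to between 231 and 237 FPKM in TIS CM, between 192 and 244 FPKM in Cont CM and between 263 and 289 FPKM in No CM, almost all of it KRT8 and KRT18. The 6 immune markers summed to between 4.61 and 5.30 FPKM in TIS CM, between 3.24 and 4.16 FPKM in Cont CM and between 4.58 and 5.85 FPKM in No CM, most of it CD14. The 6 fibroblast markers, of which DCN was listed at 0 and PDGFRB was highest with a mean of 1.29 FPKM, summed to between 2.56 and 2.79 FPKM in TIS CM, between 2.11 and 2.42 FPKM in Cont CM and between 2.50 and 2.65 FPKM in No CM. The part of these shifts in the results on the members was not tested. Cont CM replicate 2 stood apart: gene length and GC content (the share of G and C bases) explained 18.4% of the variance of its log2 values around the mean of all libraries, against 0.643% to 6.21% in the others. Fewer cells using a gene and less RNA of it per cell cannot be told apart in bulk RNA.

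Members were short, GC-rich and weakly expressed. Their median level was 2.37 FPKM, with the middle 50% of members between 1.49 and 4.72 FPKM, and 62 members reached 10 FPKM. Exon length had a median of 680 bases and ran from 68 to 16538 bases. GC content had a median of 53.6%, against 49.2% over all 13912 genes tested (those with a mean of at least 0.5 FPKM). A member was covered by a median of 81.1 fragments per library, against 988 over all genes tested and 1410 over protein-coding genes, so the precision behind each value was lower than for most genes. The standard error of a log2 fold change had a median of 0.154 for members and of 0.0722 for all genes tested. Of the 657 members, 656 were above 0 in all 9 libraries, and the members were spread over 22 chromosomes, with 72 on chromosome 19. Symbols had been given to 165 members, and 492 carried only the name of a genomic clone. Just inside the threshold lay L34079.3 (1.01 FPKM), AL355385.1 (1.002 FPKM) and AC010776.2 (1.0004 FPKM), and just outside it AC009309.1 (0.997 FPKM), CCDC183-AS1 (0.990 FPKM) and RARA-AS1 (0.986 FPKM).

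By position in the GRCh38 annotation of the table, 619 members overlapped at least 1 protein-coding gene on the opposite strand and 38 overlapped none. They formed 744 pairs with 709 distinct protein-coding genes, called partners here. In 342 pairs the antisense gene lay inside its partner, in 216 the 2 genes were arranged head to head with overlapping starts, in 149 they were tail to tail with overlapping ends, and in 37 the partner lay inside the antisense gene. For 160 members the start lay within 1000 bases of a partner's start. A tested partner was available for 582 members in 640 pairs.

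The antisense gene was usually the weaker of the pair. The level of the antisense gene over that of its partner, both in FPKM, had a median of 0.170 over the 640 pairs, and the antisense gene was above its partner in 50 of them. AC018761.2 inside HOOK2 had the highest such ratio, 14.6, with 32.8 FPKM against 2.25 FPKM and no shared exon base, and it is named here after its values were seen. The levels of the 2 genes followed each other more closely the more exon sequence they shared. Across pairs, Pearson's r of log2 levels was -0.06 for the 62 pairs with no shared exon base, 0.41 for 218 pairs with under 25% of the antisense exon bases shared, 0.48 for 200 pairs with 25% to 75% shared and 0.68 for 160 pairs above that. Pairs come from the same libraries and are not independent, so these are descriptions.

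The sources used here do not say whether fragments were counted by strand, so those of a member and those of the exons it overlaps cannot be told apart. For 109 members all exon bases lay within exons of a partner. The level of the antisense gene over that of its partner ran from 0.0268 to 1.58 in the 109 such pairs with a tested partner, with a median of 0.212 and an r of log2 levels of 0.75.

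**Figure D1:**
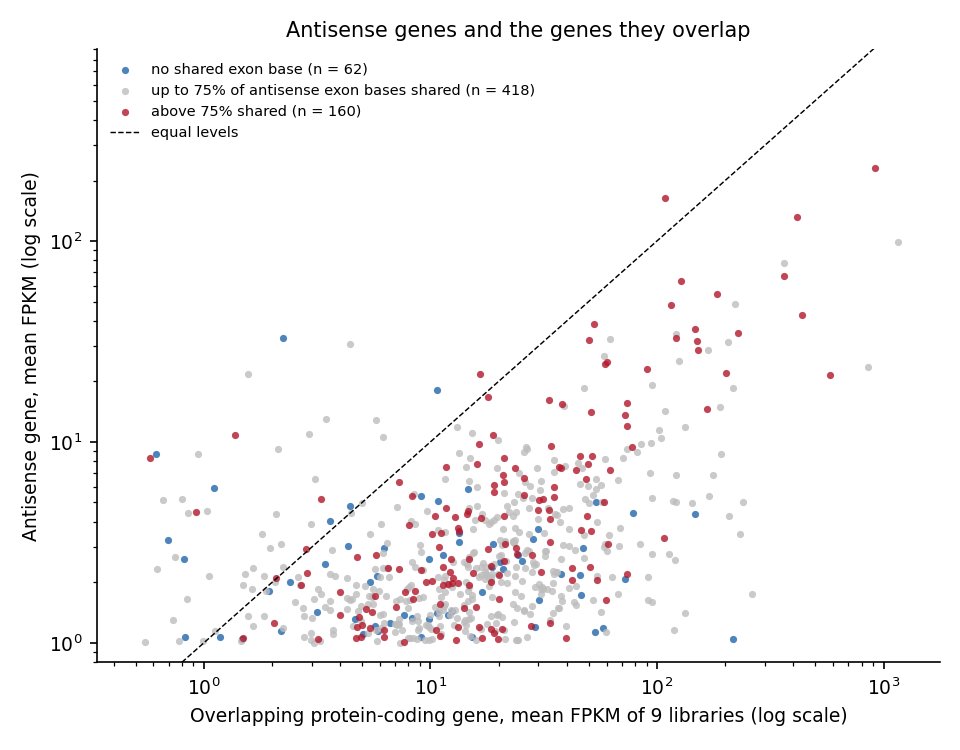
Mean FPKM of antisense genes (vertical, log scale) against mean FPKM of the protein-coding gene they overlap (horizontal, log scale), 1 point per pair, for the 640 pairs with a tested partner, coloured by the share of antisense exon bases that lie in partner exons. Most points lie below the dashed line of equal levels, and the 160 pairs with the most shared exon sequence have an r of log2 levels of 0.68.

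The 10 members with the highest levels lay over some of the most abundant messages of the cell. AC006064.4 (chr12:6537794-6538370, minus strand), whose exons lie wholly in exons of the glycolytic enzyme gene GAPDH, averaged 236 ± 17 FPKM in TIS CM, 234 ± 56 FPKM in Cont CM and 219 ± 11 FPKM in No CM (SD, n = 3 each), while GAPDH itself averaged 914 FPKM over the 9 libraries. AC011611.3 (chr12:76030494-76031378, plus strand) shares 97.2% of its exon bases with PHLDA1 and averaged 163 FPKM, above the 108 FPKM of PHLDA1. AC093484.3 inside the ubiquitin gene UBB averaged 132 FPKM, and AL662797.1 inside the tubulin gene TUBB averaged 98.5 FPKM. The intermediate filament gene VIM, a marker of mesenchymal cells, was overlapped by VIM-AS1 and AL133415.1. VIM-AS1 (chr10:17214239-17229985), head to head with VIM and with 32.2% of its exon bases shared, averaged 77.7 FPKM. AL133415.1, inside VIM and with 87.7% shared, averaged 66.6 FPKM. The next 4 lay inside TIMP2, an inhibitor of matrix metalloproteases (AC022966.1, 63.2 FPKM), the disulfide isomerase gene P4HB (AC145207.3, 54.3 FPKM), the ribosomal protein gene RPL23A (AC010761.1, 48.3 FPKM) and TPT1 (AL138963.3, 48.2 FPKM). None of the 10 passed the test in any comparison, and their adjusted p by limma lay between 0.328 and 0.984. VIM-AS1, for example, averaged 79.9 ± 5.5 FPKM in TIS CM, 76.9 ± 6.7 FPKM in Cont CM and 76.2 ± 6.1 FPKM in No CM (SD, n = 3 each).

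The sequence around the start is printed for 5 of the members described below, because their levels differed between groups and RefSeq (GRCh38.p14) lists a start within 100 bases of that in the table. Each line runs from 250 bases before to 50 bases after the start, 5′ to 3′ on the strand of the antisense gene. Both strands were searched and capitals mark the matches, which may overlap. The letters searched were GGGCGG for the GC box, which reads CCGCCC when it lies on the other strand, and ACGTG for the core of the hypoxia response element. The AP-1 site was searched as TGANTCA, the TATA box as TATAAA, and the CCAAT box by the letters of its name.
LMO7-AS1: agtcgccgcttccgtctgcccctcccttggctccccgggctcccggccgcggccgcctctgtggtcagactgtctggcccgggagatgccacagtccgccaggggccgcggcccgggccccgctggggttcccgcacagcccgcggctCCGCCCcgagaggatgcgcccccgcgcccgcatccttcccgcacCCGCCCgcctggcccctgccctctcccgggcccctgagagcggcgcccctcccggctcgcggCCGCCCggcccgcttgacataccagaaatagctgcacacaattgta
PLBD1-AS1: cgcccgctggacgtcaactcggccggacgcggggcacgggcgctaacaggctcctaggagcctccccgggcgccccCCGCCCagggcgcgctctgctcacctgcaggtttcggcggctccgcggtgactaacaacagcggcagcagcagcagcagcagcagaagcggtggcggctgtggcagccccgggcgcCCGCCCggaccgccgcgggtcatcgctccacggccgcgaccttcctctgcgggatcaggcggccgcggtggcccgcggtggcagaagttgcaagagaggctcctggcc
RAET1E-AS1: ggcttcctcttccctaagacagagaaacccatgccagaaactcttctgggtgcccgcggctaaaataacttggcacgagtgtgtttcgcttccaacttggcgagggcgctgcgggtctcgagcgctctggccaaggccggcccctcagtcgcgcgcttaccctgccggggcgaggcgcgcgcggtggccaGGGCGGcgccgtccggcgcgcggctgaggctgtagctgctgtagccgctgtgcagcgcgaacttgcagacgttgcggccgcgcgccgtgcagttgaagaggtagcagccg
NDUFB2-AS1: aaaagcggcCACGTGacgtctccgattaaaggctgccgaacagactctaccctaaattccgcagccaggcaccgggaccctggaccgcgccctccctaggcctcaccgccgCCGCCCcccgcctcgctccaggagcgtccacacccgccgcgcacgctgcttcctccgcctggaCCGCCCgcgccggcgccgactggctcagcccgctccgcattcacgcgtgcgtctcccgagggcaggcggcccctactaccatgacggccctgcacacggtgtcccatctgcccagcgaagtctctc
HAGLR: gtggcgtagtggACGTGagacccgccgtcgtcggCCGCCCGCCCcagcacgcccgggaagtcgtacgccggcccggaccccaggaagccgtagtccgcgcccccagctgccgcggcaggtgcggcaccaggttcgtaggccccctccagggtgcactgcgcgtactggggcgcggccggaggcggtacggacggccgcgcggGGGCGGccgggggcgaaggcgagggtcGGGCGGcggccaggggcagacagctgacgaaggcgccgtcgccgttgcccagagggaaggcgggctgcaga
The windows are chr13:75635945-75636244 (minus strand) for LMO7-AS1, chr12:14567482-14567781 (plus) for PLBD1-AS1, chr6:149863248-149863547 (plus) for RAET1E-AS1, chr7:140697028-140697327 (minus) for NDUFB2-AS1 and chr2:176188909-176189208 (minus) for HAGLR. All 5 were rich in G and C, from 67.3% to 77.3%, against a median of 58.7% over all promoters in the table, and held from 35 to 45 CpG, against a median of 14. The GC box was found in all 5, with 3, 2, 1, 2 and 4 matches in the order printed, and 45.0% of 35116 promoters of this length held it. The ACGTG letters were found in NDUFB2-AS1, as 2 overlapping matches that form CACGTG, and once in HAGLR, and 21.4% of all promoters held them. None of the 5 windows held the AP-1 letters, which 7.71% of all promoters held, the CCAAT box (34.6%) or the TATA box (11.5%). Of the members, 122 had such an entry. A match describes the letters and shows no binding.

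The question put to TIS CM against Cont CM is what medium from senescent cells does beyond medium from cells of the same line that are not senescent. In it 9 members were higher and 1 was lower. The 9 that rose were AC068580.3, NDUFB2-AS1, AP006621.1, AC079742.1, AC010320.2, AL592166.1, AP002807.1, AC005786.3 and MELTF-AS1, and DLGAP1-AS1 fell. Their changes were between 1.21-fold and 1.65-fold. The groups did not overlap in any of the 10. Calls were made at an adjusted p under 0.05 in limma on log2(FPKM + 0.5), adjusted over all 13912 genes tested, and fold changes on that scale understate changes of weakly expressed genes.

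The 10 members called were 1.52% of the 657, where 4.48% of all genes tested were called, 2.9% as higher and 1.57% as lower. The libraries of the 2 groups did not overlap for 95 members, 14.5% of them, where this held for 28.6% of all genes tested. Calls came from the better covered members: of the 165 members with the fewest fragments 0 were called, and of the next 3 sets of 164 members 1, 3 and 6 were called. Members had a median log2 fold change of 0.07, with 422 of 657 above 0, and that of all genes tested a median of 0.003. Leaving out Cont CM replicate 2, the library that stood apart in its GC and length trend, brought the median to 0.04. No member was called without that library or without any 1 of the 3 TIS CM libraries, and 1 member was called once the trend with GC content and length had been removed from each library. In a fit of only the 6 libraries of the 2 groups 0 members were called. The count over all genes tested, 623 with all 9 libraries, fell as well. It was 99 without Cont CM replicate 2, and 11, 25 and 83 without TIS CM replicates 1, 2 and 3. Removing the trend gave 133 genes, and the fit of only the 2 groups gave 33 (0.237%).

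**Figure D2:**
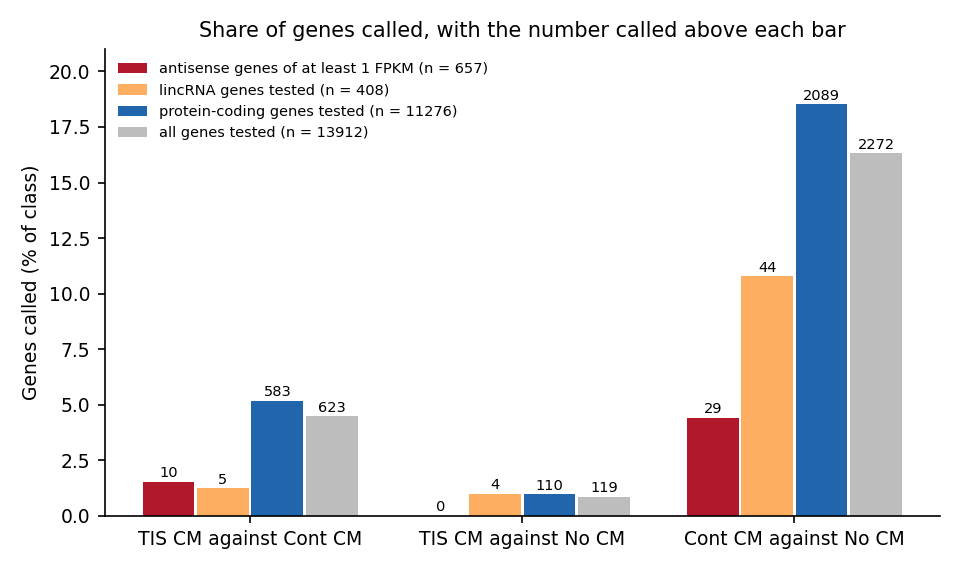
Share of genes called at an adjusted p under 0.05 (vertical, percent of the class) in each of the 3 comparisons, for the 657 antisense members, 408 lincRNA genes, 11276 protein-coding genes and all 13912 genes tested, with the number called above each bar. The members' bars of 10, 0 and 29 genes lie below those of protein-coding genes in each comparison. Members have a mean of at least 1 FPKM, and the other classes one of at least 0.5 FPKM.

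AC068580.3, a clone-named transcript inside CTSD (chr11:1760348-1762486, plus strand), had 30.1, 38.6 and 34.2 FPKM in TIS CM, against 18.4, 18.8 and 25.1 FPKM in Cont CM. Every TIS CM library was above every Cont CM library (log2 fold change 0.72, SE 0.12, adjusted p by limma = 0.0206), and the 29, 32.3 and 31.3 FPKM of No CM lay beside those of TIS CM. CTSD encodes cathepsin D, a lysosomal protease, and had 178, 181 and 180 FPKM in TIS CM, against 129, 101 and 121 FPKM in Cont CM. CTSD was called too, with a log2 fold change of 0.63, and 24.5% of the antisense exon bases lie in its exons.

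NDUFB2-AS1 (chr7:140695336-140697077, minus strand) lies inside NDUFB2, which encodes a subunit of mitochondrial complex I, and runs tail to tail with ADCK2. It had 3.60, 3.91 and 3.28 FPKM in TIS CM, against 2.00, 1.76 and 2.40 FPKM in Cont CM, and 2.47, 2.74 and 3.38 FPKM in No CM. TIS CM was above Cont CM without overlap and overlapped No CM in 1 library. TIS CM differed from Cont CM by a log2 fold change of 0.69 (SE 0.12, adjusted p by limma = 0.0217). NDUFB2 and ADCK2 were not called, with log2 fold changes of 0.19 and 0.16.

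AP006621.1 (chr11:823634-832883, minus strand) spans a gene-dense stretch and overlaps CRACR2B, the triglyceride lipase gene PNPLA2 and the tetraspanin gene CD151. It had 11, 9.89 and 10.6 FPKM in TIS CM, against 5.74, 6.55 and 7.37 FPKM in Cont CM. The 10.3, 9.53 and 12.4 FPKM of No CM covered the same span as TIS CM, so Cont CM was the low group. The log2 fold change of TIS CM against Cont CM was 0.64 (SE 0.10, adjusted p by limma = 0.0178), and none of its 3 partners was called.

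Of the other members that were higher, AC079742.1 and AC005786.3 have all exon bases in exons of their partners, the palmitoyltransferase gene ZDHHC4 and the lysosomal transporter gene MFSD12. Their log2 fold changes were 0.55 and 0.39, where ZDHHC4 had 0.04 and MFSD12 0.03, and neither partner was called. AP002807.1, tail to tail with the choline kinase gene CHKA, had a log2 fold change of 0.43. AC010320.2, tail to tail with the phosphatase subunit gene PPP2R1A, had 0.48, as did AL592166.1, tail to tail with the mitotic kinesin gene KIF2C. None of these partners was called. MELTF-AS1 had 5.04, 4.59 and 4.54 FPKM in TIS CM, against 3.70, 3.8 and 3.94 FPKM in Cont CM. Its log2 fold change was 0.28 (SE 0.06, adjusted p by limma = 0.0325), and MELTF, which encodes the iron-binding protein melanotransferrin, was called higher as well, with 0.17. In all, 2 of the 9 members that rose had a partner called in the same direction and 7 had no partner called, where 5.76% of 608 tested partners were called higher. In the test of log2 ratios of antisense gene to partner, described below, no pair was called in this comparison.

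DLGAP1-AS1 (chr18:3593732-3598352, plus strand) was the member that fell. It had 2.19, 2.13 and 2.31 FPKM in TIS CM, against 2.91, 2.68 and 2.74 FPKM in Cont CM, and 2.70, 2.65 and 2.88 FPKM in No CM. TIS CM was below both other groups without overlap. Its log2 fold change was -0.27 against Cont CM (SE 0.06, adjusted p by limma = 0.0388) and -0.26 against No CM (adjusted p = 0.0991), where it was not called. The gene it lies in, DLGAP1, which encodes a synaptic scaffold protein, averaged 0.00126 FPKM and was not tested.

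**Figure D3:**
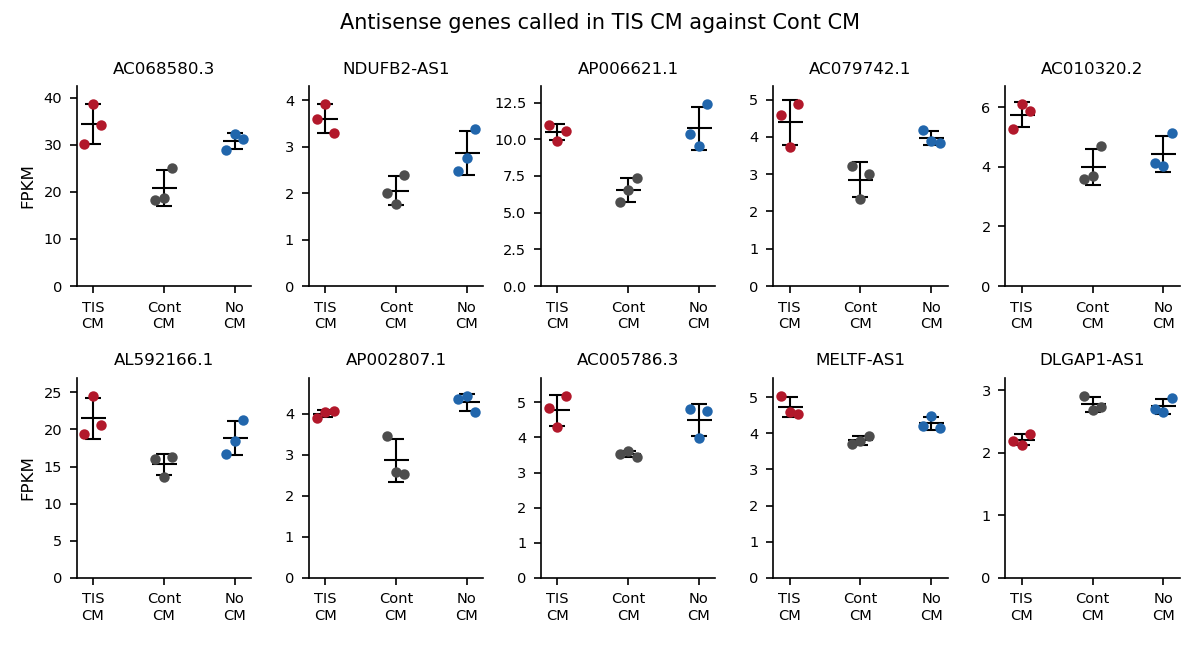
FPKM per library (vertical, from 0) of the 10 antisense genes called in TIS CM against Cont CM, with points for the 3 libraries of each group, the mean and the SD as black bars. In 9 panels TIS CM lies above Cont CM and in the last, DLGAP1-AS1, below it. In most panels No CM lies near TIS CM.

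In TIS CM against No CM, which compares the senescent medium with plain medium, 0 members were called by limma, where 0.855% of all genes tested were called. At an unadjusted p under 0.05 there were 67 members, 49 higher and 18 lower. These were 10.2% of members, where 13.6% of all genes tested passed that threshold. Limma with voom on the recovered fragments called 0 members as well, where 245 of all genes tested were called. The groups did not overlap for 90 members, 13.7% of them, where this held for 24.4% of all genes tested. PLBD1-AS1 came with the largest rise among the named members, with 1.71, 2.04 and 1.82 FPKM in TIS CM, against 0.789, 0.745 and 0.831 FPKM in No CM. The groups were apart by more than the spread within each, and its log2 fold change of 0.87 (SE 0.19) had an adjusted p by limma of 0.0912. Of those that were lower, NRSN2-AS1 had a log2 fold change of -0.65 (adjusted p by limma = 0.106) and AC027796.4 one of -0.60 (adjusted p by limma = 0.0776). In a fit of only these 6 libraries 7 members were called, 4 higher and 3 lower, or 1.07% of members, where 2.38% of all genes tested were called.

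Cont CM against No CM asks what medium conditioned by the line itself does to its own cells, and it gave the most calls. Of the members, 8 were higher and 21 were lower. Those that rose were LMO7-AS1, PLBD1-AS1, RBMS3-AS3, AL365184.1, HAGLR, HCG18, AC097534.2 and CASC8, by 1.22-fold to 1.80-fold, and no tested partner of any of them was called. In the test of log2 ratios described below, no pair of a member called here, higher or lower, was called. Those that fell did so by 1.21-fold to 1.95-fold, with AC010542.5, RAET1E-AS1, AP006621.1, DDIT4-AS1 and AL078612.1 showing the largest falls. LMO7-AS1 and PLBD1-AS1 averaged below 1 FPKM in No CM, as did RAET1E-AS1 in Cont CM. They reached the mean of 1 FPKM that chose the members through the groups where they were higher. Of the 21, 8 had a partner that fell with them, where 12.3% of 608 tested partners were called lower and 9.05% higher. The comparison shares the Cont CM libraries with that of TIS CM against Cont CM.

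The 29 members called were 4.41% of the 657, where 16.3% of all genes tested were called, 7.77% as higher and 8.56% as lower. The groups did not overlap for 85 members, 12.9% of them, where this held for 33.3% of all genes tested. In order of rising coverage, 4 of 165 and then 7, 8 and 10 of 164 members were called. Members had a median log2 fold change of -0.05, with 276 of 657 above 0, where the median of all genes tested was -0.001. Without Cont CM replicate 2 the median was -0.02 and 23 members were called, and without No CM replicate 3 it was -0.004 and 12 were called. Without Cont CM replicate 1, 50 members were called, and with only the 6 libraries of the 2 groups 18 were (2.74%). Of all genes tested, 1616 were called without Cont CM replicate 2, 1075 without No CM replicate 3 and 2770 without Cont CM replicate 1. The fit of only the 2 groups called 1242 (8.93%), and that of all 9 libraries 2272. Of the 29, 9 kept their call in each of the 19 alternatives tried: LMO7-AS1, RBMS3-AS3, HAGLR and HCG18 among those that rose, and AP006621.1, DDIT4-AS1, JMJD1C-AS1, AP002807.1 and AC113383.1 among those that fell.

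LMO7-AS1 (chr13:75604700-75635994, minus strand), whose start region is printed above, lies head to head with LMO7 and tail to tail with the ubiquitin hydrolase gene UCHL3. It had 1.67, 1.49 and 1.47 FPKM in TIS CM and 2.50, 1.83 and 2.11 FPKM in Cont CM, against 0.887, 0.842 and 1.18 FPKM in No CM. No library of 1 group overlapped those of another, and TIS CM lay between the others. The log2 fold change of Cont CM against No CM was 0.85 (SE 0.12, adjusted p by limma = 0.00222). LMO7 averaged 5.57 FPKM and had a log2 fold change of 0.06, and UCHL3 averaged 5.29 FPKM and had one of 0.16, with neither called.

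PLBD1-AS1 (chr12:14567750-14619755, plus strand) lies head to head with PLBD1, a gene of the phospholipase B domain family. It had 2.39, 1.08 and 2.05 FPKM in Cont CM, against 0.789, 0.745 and 0.831 FPKM in No CM. All Cont CM libraries were above No CM, and the lowest of them was replicate 2, the library that stood apart. Its log2 fold change was 0.82 (SE 0.19, adjusted p by limma = 0.0217), that of PLBD1 was -0.07, and the call was lost in 6 of the 19 alternatives, at adjusted p up to 0.0676.

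RBMS3-AS3 lies in an intron-only overlap with RBMS3, which encodes an RNA-binding protein and averaged 0.822 FPKM, less than the 2.61 FPKM of the antisense gene. It had 3.74, 3.19 and 3.31 FPKM in Cont CM, against 1.58, 2.43 and 1.74 FPKM in No CM. The groups did not overlap, with a log2 fold change of 0.71 (SE 0.13, adjusted p by limma = 0.00832), and RBMS3 had 0.07.

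HAGLR (chr2:176164051-176188958, minus strand) is transcribed from the HOXD cluster of developmental transcription factors, head to head with HOXD1. It had 4.34, 4.31 and 4.68 FPKM in TIS CM and 5.07, 5.00 and 5.09 FPKM in Cont CM, against 3.95, 3.76 and 3.47 FPKM in No CM. The 3 groups were apart, with TIS CM between Cont CM and No CM. Cont CM differed from No CM by a log2 fold change of 0.40 (SE 0.06, adjusted p by limma = 0.00251). HOXD1 averaged 2.07 FPKM, its log2 fold change was 0.31 and it was not called (adjusted p by limma = 0.0961), and HOXD3, which HAGLR overlaps at its other end, averaged 0.00619 FPKM.

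Among the other members that rose, HCG18 of the HLA complex is the longest, with 13918 exon bases, and lies head to head with the ubiquitin ligase gene TRIM39. It had 5.90, 5.95 and 5.42 FPKM in Cont CM, against 4.10, 4.84 and 4.36 FPKM in No CM, with a log2 fold change of 0.35 (SE 0.07, adjusted p by limma = 0.0116). AC097534.2, head to head with SAP30 of the Sin3 corepressor complex, had a log2 fold change of 0.33, and SAP30 one of -0.03. AL365184.1, tail to tail with RGS7, had 0.57, and CASC8 had 0.28. With 1 library left out, the calls of AC097534.2, AL365184.1 and CASC8 were lost in 7, 8 and 7 of 9 fits. In 10 other settings they were lost in 6, 6 and 5. RGS7 (0.299 FPKM) and POU5F1B, which lies inside CASC8 (0.00501 FPKM), were below the test's filter.

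**Figure D4:**
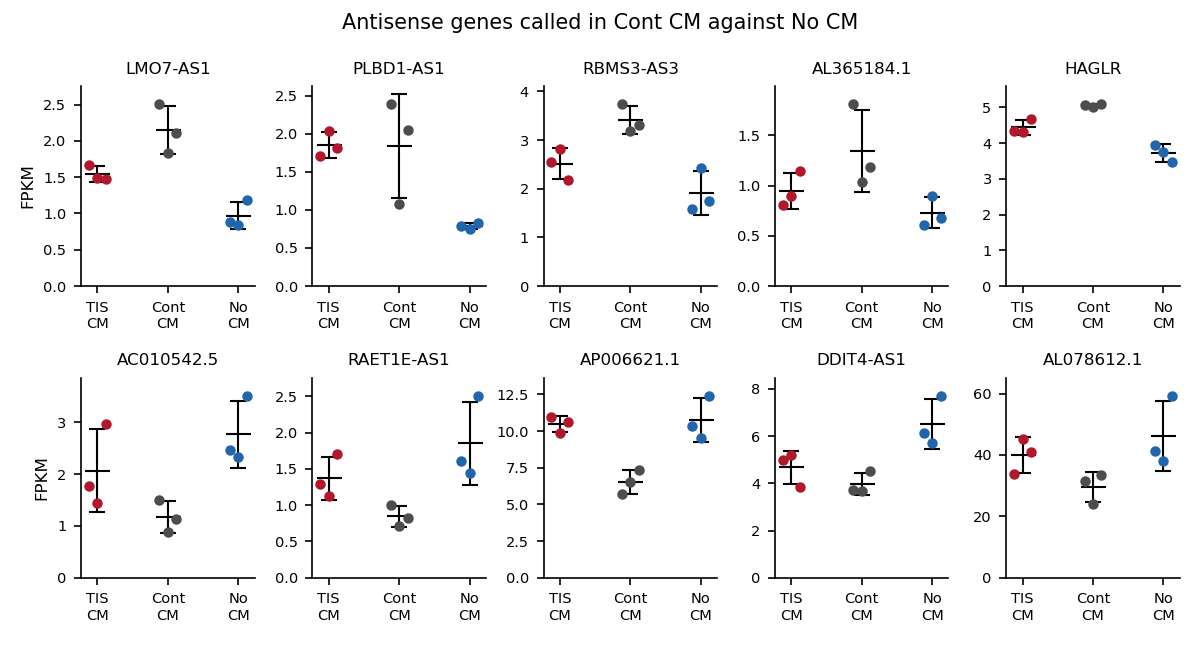
FPKM per library (vertical, from 0) of the 5 antisense genes with the largest rise (upper row) and the 5 with the largest fall (lower row) in Cont CM against No CM, with points for the 3 libraries of each group, the mean and the SD as black bars. Cont CM lies above No CM in the upper row and below it in the lower row, and TIS CM, shown on the left, lies between them or near No CM in most panels.

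The largest fall was in AC010542.5, a member of 382 exon bases inside the chemokine-like factor gene CKLF, with 1.51, 0.876 and 1.13 FPKM in Cont CM, against 2.46, 2.32 and 3.51 FPKM in No CM. The log2 fold change was -0.96 (SE 0.23, adjusted p by limma = 0.022), where CKLF had -0.12 and was not called. This member rests on a mean of 27 fragments per library.

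RAET1E-AS1 (chr6:149863494-149919507, plus strand) crosses a region of RAET1 genes, which encode stress-induced ligands of the natural killer cell receptor NKG2D, and lies head to head with LRP11. It had 1.28, 1.12 and 1.70 FPKM in TIS CM and 1.00, 0.715 and 0.822 FPKM in Cont CM, against 1.6, 1.44 and 2.50 FPKM in No CM. Cont CM was the lowest group without overlap. Cont CM differed from No CM by a log2 fold change of -0.78 (SE 0.18, adjusted p by limma = 0.0186). LRP11 fell as well, with 1.16, 1.07 and 1.19 FPKM in Cont CM, against 1.79, 2.10 and 1.92 FPKM in No CM (log2 fold change -0.57), while RAET1G had -0.24 and was not called.

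DDIT4-AS1 (chr10:72274915-72275980, minus strand) has all 847 exon bases within exons of DDIT4, a stress-induced gene whose product inhibits the growth regulator mTORC1. It had 4.97, 5.19 and 3.86 FPKM in TIS CM and 3.72, 3.66 and 4.52 FPKM in Cont CM, against 6.14, 5.70 and 7.70 FPKM in No CM. TIS CM overlapped Cont CM, and both were below No CM. DDIT4 had 37.4, 46.1 and 48.4 FPKM in Cont CM, against 73.7, 66.3 and 76.8 FPKM in No CM. The log2 fold changes were -0.65 for DDIT4-AS1 (SE 0.13, adjusted p by limma = 0.0126) and -0.72 for DDIT4 (adjusted p by limma = 0.0022). The log2 ratio of the 2 genes changed by 0.07, which was not called. AL078612.1, whose 150 exon bases all lie in exons of RCN1, a calcium-binding protein of the endoplasmic reticulum, had a log2 fold change of -0.62, and RCN1 fell with -0.24. The call of AL078612.1 (adjusted p by limma = 0.0482) was lost in 8 of 9 fits with 1 library left out and in 5 of 10 other settings.

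There were 5 members called lower in Cont CM against No CM and higher in TIS CM against Cont CM: AC068580.3, AP006621.1, AP002807.1, AC079742.1 and AC005786.3. Both comparisons use the Cont CM libraries, so a low value there enters each. AC068580.3 had a log2 fold change of -0.58 in Cont CM against No CM (SE 0.12, adjusted p by limma = 0.015), together with CTSD, which had 129, 101 and 121 FPKM in Cont CM, against 196, 213 and 207 FPKM in No CM (log2 fold change -0.82). AP006621.1 had -0.67 (SE 0.10, adjusted p by limma = 0.00374), and of its partners PNPLA2 fell with -0.35 while CD151 and CRACR2B had -0.01 and -0.22. AP002807.1 had -0.52, AC079742.1 -0.42 and AC005786.3 -0.31, with no partner called.

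Of the remaining members with larger falls, NRSN2-AS1, head to head with NRSN2 and spanning SOX12, had 2.43, 2.93 and 1.75 FPKM in Cont CM, against 3.61, 4.0 and 3.40 FPKM in No CM (log2 fold change -0.56). JMJD1C-AS1, inside a gene of the histone demethylase family, had -0.55, and AC027796.4, inside the lysosomal cystine transporter gene CTNS, had -0.54. Their partners had log2 fold changes between -0.01 and 0.08 and were not called. Among the other members that fell was SLCO4A1-AS1, at 8.02 ± 0.48 FPKM in Cont CM and 10.1 ± 0.6 FPKM in No CM (SD, n = 3 each), whose partner SLCO4A1, an organic anion transporter gene, fell too, with log2 fold changes of -0.32 for the antisense gene and -0.79 for SLCO4A1. AC008870.3 fell inside the mitotic kinase gene PLK1, which fell too, as did EDIL3, the partner of AC113383.1. AL441992.1 fell where its partner ZER1 rose, with log2 fold changes of -0.32 and 0.16. The call of AL441992.1 (adjusted p by limma = 0.0489) was lost in 7 of 9 fits with 1 library left out. It was also lost in 5 of 10 other settings. SLCO4A1-AS1, AC008870.3, AC113383.1 and AL441992.1 are named here for their partners' calls, after these values were seen.

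Read from the side of the partners, 55 pairs had a partner that was higher in Cont CM against No CM. Of the antisense genes in them 0 were called higher, 1 was called lower, and 35 had a log2 fold change above 0, where over all 640 pairs 41.1% of antisense genes were above 0 and 1.09% were called higher. Of 82 pairs with a partner that was lower, 8 antisense genes were called lower, 0 higher, and 69 had a log2 fold change below 0, where over all 640 pairs 58.9% were below 0 and 3.75% were called lower. In TIS CM against Cont CM, 42 pairs had a partner that was higher, and 2 of the antisense genes were called higher while 37 had a log2 fold change above 0, where over all 640 pairs 65.8% were above 0 and 2.03% were called higher. Across the 640 pairs, r between the log2 fold changes of the 2 genes was 0.36 in Cont CM against No CM, 0.31 in TIS CM against Cont CM and 0.25 in TIS CM against No CM. Over the 109 pairs in which all antisense exon bases were shared it was 0.46 in Cont CM against No CM, 0.27 in TIS CM against Cont CM and 0.35 in TIS CM against No CM, against 0.26, 0.26 and 0.21 over the 62 pairs with no shared exon base. Both genes of a pair were measured in the same libraries, and these values are descriptions.

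**Figure D5:**
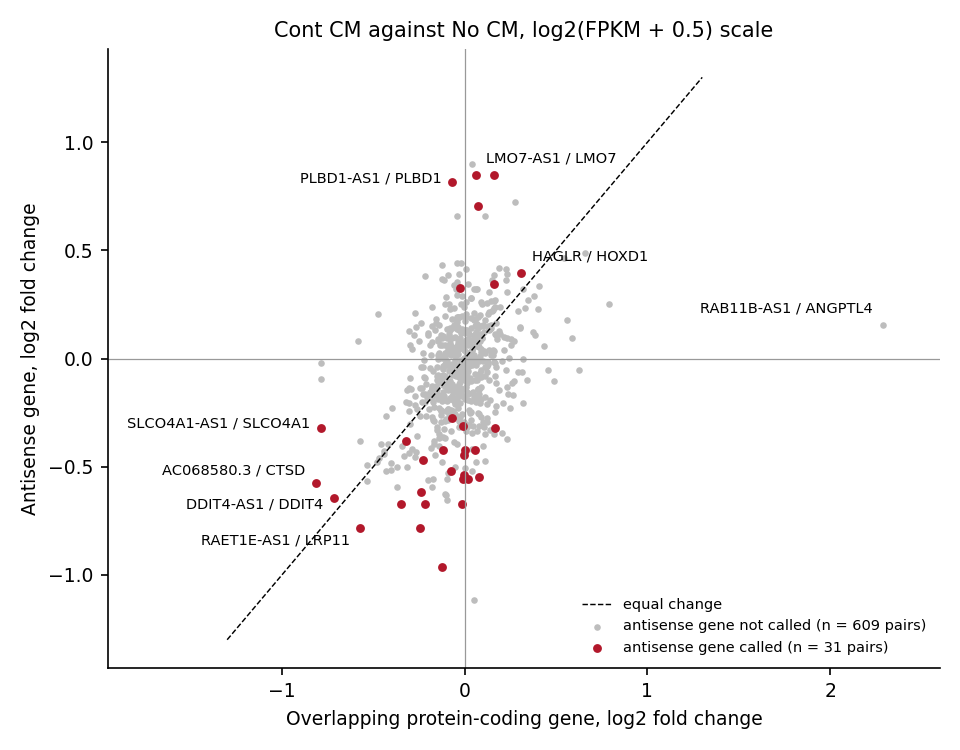
Log2 fold change of each antisense gene (vertical) against that of the protein-coding gene it overlaps (horizontal) in Cont CM against No CM, 1 point per pair, for 640 pairs, with pairs whose antisense gene was called in red. AC068580.3, DDIT4-AS1 and RAET1E-AS1 lie near the dashed line of equal change, LMO7-AS1 and PLBD1-AS1 lie above their partners near 0, and ANGPTL4 at 2.29 stands alone on the right with RAB11B-AS1 at 0.15. Of these 640 pairs, only that of RAB11B-AS1 and ANGPTL4 was called in the test of the log2 ratio.

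Whether an antisense gene moved differently from its partner was tested on the log2 ratio of the pair, in which the scaling of a library cancels, over 1024 pairs of antisense and protein-coding genes with means of at least 0.5 FPKM. Limma called no pair in TIS CM against Cont CM (0% of pairs) or in TIS CM against No CM (0%), where 80 and 71 pairs had an unadjusted p under 0.05. In Cont CM against No CM 3 pairs were called (0.293%), and 1 of them holds a member. RAB11B-AS1 (chr19:8374373-8390685, minus strand) starts head to head with RAB11B, a GTPase gene of recycling endosomes, and its last base overlaps the last exon of ANGPTL4, an inhibitor of lipoprotein lipase. RAB11B-AS1 has been described as a hypoxia-induced RNA in breast cancer cells, and ANGPTL4 as a hypoxia-responsive gene.

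RAB11B-AS1 had 6.23, 7.23 and 6.37 FPKM in TIS CM and 6.87, 5.89 and 7.79 FPKM in Cont CM, against 6.10, 6.10 and 6.0 FPKM in No CM. TIS CM lay above No CM without overlap, and Cont CM overlapped both. ANGPTL4 had 11.3, 9.55 and 11.6 FPKM in TIS CM and 20.5, 17.9 and 22.3 FPKM in Cont CM, against 2.55, 5.69 and 3.47 FPKM in No CM, with all groups apart. The log2 ratio of RAB11B-AS1 to ANGPTL4 changed by -2.14 in Cont CM against No CM (SE 0.23, adjusted p by limma over all pairs = 0.00125). In TIS CM against No CM it changed by -1.31 (adjusted p by limma = 0.133), and in TIS CM against Cont CM by 0.83 (adjusted p by limma = 0.618). The ratio to RAB11B changed by 0.01 in Cont CM against No CM. RAB11B-AS1 itself was not called in any comparison, with a log2 fold change of 0.15 in Cont CM against No CM (adjusted p by limma = 0.285).

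Of 71 antisense RNAs with published studies that were listed for this work, 18 were members, and 1 of them, HAGLR, was called in any comparison. Over all 657 members, 34 were called in any comparison. HAGLR was called in Cont CM against No CM, where 4.41% of members and 16.3% of all genes tested were called. MIF-AS1, tail to tail with the cytokine gene MIF, averaged 32.8 ± 0.9 FPKM in TIS CM, 32.2 ± 1.9 FPKM in Cont CM and 32.8 ± 4.9 FPKM in No CM (SD, n = 3 each). ZFAS1, a host of small nucleolar RNAs that starts head to head with ZNFX1, averaged 11.7 ± 1.0 FPKM in TIS CM, 11.6 ± 0.5 FPKM in Cont CM and 12.1 ± 0.9 FPKM in No CM (SD, n = 3 each). Both differed between groups by less than the spread between replicates. TMPO-AS1 averaged 6.02 ± 0.30 FPKM in TIS CM, 5.21 ± 0.55 FPKM in Cont CM and 6.38 ± 0.51 FPKM in No CM (SD, n = 3 each). Its log2 fold change of -0.27 in Cont CM against No CM was not called (adjusted p by limma = 0.0507), while its partner TMPO, which encodes a nuclear lamina protein, fell with -0.18. FOXP4-AS1 averaged 1.67 ± 0.40 FPKM in TIS CM, 1.25 ± 0.28 FPKM in Cont CM and 2.00 ± 0.28 FPKM in No CM (SD, n = 3 each), with a log2 fold change of -0.52 in Cont CM against No CM (adjusted p by limma = 0.0621), where the transcription factor gene FOXP4 fell with -0.43. ZEB1-AS1, head to head with the mesenchymal transcription factor gene ZEB1, averaged 1.19 FPKM and had a log2 fold change of 0.02 there, against 0.16 for ZEB1. The remaining listed members, VPS9D1-AS1, ARRDC1-AS1, THAP9-AS1, LOXL1-AS1, NUTM2A-AS1, SBF2-AS1, PRKAG2-AS1, CEBPB-AS1, UBA6-AS1, ST7-AS1 and A1BG-AS1, averaged between 1.12 and 6.52 FPKM and were not called. VIM-AS1, also listed, is described above.

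Genes that end and degrade short-lived nuclear transcripts were measured beside the members. Of 33 tested, ZFC3H1, a part of the complex that directs nuclear polyadenylated RNA to the exosome, was higher in Cont CM against No CM (log2 fold change 0.27, adjusted p by limma = 0.00902) and lower in TIS CM against Cont CM (-0.23, adjusted p by limma = 0.0403). The exosome subunit gene EXOSC9 and the cleavage factor gene CPSF1 were lower in Cont CM against No CM (-0.27 and -0.17), and 30 were not called there. Of 22 tested genes for proteins that bind, edit or sense double-stranded RNA, OASL, OAS3, IFIH1, DHX58 and ZC3HAV1 were lower in Cont CM against No CM, DICER1 was higher and 16 were not called, where 16.3% of all genes tested were called. Among those not called, OAS2 had a log2 fold change of -0.21, TLR3 one of -0.28, DDX58 one of -0.06, ADAR one of -0.06 and EIF2AK2 one of 0.04. OASL averaged 6.90 ± 0.32 FPKM in Cont CM and 11.4 ± 0.9 FPKM in No CM (SD, n = 3 each), with a log2 fold change of -0.68 (adjusted p by limma = 0.000227). OASL and ZC3HAV1 were also lower in TIS CM against No CM (-0.52 and -0.31), and 0 of the 22 were called in TIS CM against Cont CM. Of all genes tested, 0.855% were called in TIS CM against No CM and 4.48% in TIS CM against Cont CM. The median log2 fold change of the 33 genes was -0.01 and that of the 22 genes -0.07 in Cont CM against No CM, beside -0.001 over all genes tested.

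Other classes gave the following shares. Of 408 lincRNA genes tested, which lie apart from protein-coding genes, 5 were called in TIS CM against Cont CM (1.23%). There were 4 in TIS CM against No CM (0.980%) and 44 in Cont CM against No CM (10.8%). Of all genes tested, 4.48%, 0.855% and 16.3% were called in these comparisons, in the same order. The lincRNA genes were taken at a mean of at least 0.5 FPKM and the members at 1 FPKM. The members had a median of 81.1 fragments per library, against 59.4 for lincRNA genes. The 1070 antisense genes of at least 0.5 FPKM had a median of 50.6, below that of lincRNA genes. In Cont CM against No CM, 8 members were higher and 21 lower, against 31 and 13 lincRNA genes, and the difference between the classes was not tested.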

How the data were processed

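RNA captured on poly-T beads was sequenced from 9 libraries of 3 groups. The authors deposited FPKM for 58735 genes; the build was hg38 and the tools were DESeq2 1.20.0, featureCounts 1.5.0-p3, HISAT2 2.0.5 and fastp, per the submitters' processing notes, which give no settings. Coordinates and lengths in the table equalled those of GENCODE 29 (Ensembl 94) for 100% of genes. FPKM times length stepped by whole fragments for 100% of values within 0.01, which gave fragments per library. Tests used log2(FPKM + 0.5) of the deposited values, a scale that understates changes of weakly expressed genes. Genes with a mean of at least 0.5 FPKM (13912) were tested with limma 3.58.1 in R 4.3.3, with group means of all 9 libraries, an intensity trend and no replicate block. P-values were adjusted by Benjamini-Hochberg over all genes in each comparison, with calls at an adjusted p under 0.05. Log2 ratios of antisense gene to partner were fitted likewise, without the trend. The fits were tested on simulated data. Exon overlaps came from GENCODE 29, promoters from RefSeq.

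The members, the gene lists and the studied antisense RNAs were chosen with earlier results of these data known. Named members are the 10 with the highest levels, up to 10 per direction among calls whose groups do not overlap, those with a called ratio, and those on the list of studied RNAs. No column was left out. Some overlapping genes and markers are not reported here. Alternatives were other pseudocounts, filters and scalings, voom, fits without the group not compared, the replicate block, each library left out, and removal of each library's GC and length trend. Figures were drawn with matplotlib 3.10.9.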

Additional observations from a re-analysis of the deposited data

How the results depend on the processing

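The count of members called in TIS CM against Cont CM, 10 as reported, was 0 with no filter on low values, 0 with only the 2 groups, 4 with the replicate block, 1 with the GC and length trend removed, and between 0 and 12 with 1 library left out. Over all genes in each fit, 623 as reported, the counts were 207, 33, 126, 133, and between 11 and 1084, in the same order. In TIS CM against No CM, 0 as reported, the count of members was 7 with only the 2 groups, 0 with the replicate block and between 0 and 3 with 1 library left out. Over all genes, 119 as reported, the counts were 331, 4, and between 9 and 365. In Cont CM against No CM, 29 as reported, the count of members was 12 with no filter, 18 with only the 2 groups, 32 with the replicate block and between 12 and 50 with 1 library left out. Over all genes, 2272 as reported, the counts were 1533, 1242, 1461, and between 1075 and 2770. Other pseudocounts, a filter at 1 FPKM, equal library sums, quantile normalization and voom gave between 8 and 11, 0, and between 24 and 33 members in the 3 comparisons. Over all genes they gave between 583 and 1085, between 110 and 245, and between 2242 and 2694. The count of pairs with a called ratio in Cont CM against No CM, 3 as reported, was 8 at a pseudocount of 1, 1 at 0.1, 2 with the replicate block and between 1 and 4 with 1 library left out, and in TIS CM against No CM it was between 0 and 1. The ratio of RAB11B-AS1 to ANGPTL4 kept its call in all of its alternatives, with adjusted p by limma between 0.000153 and 0.0179. None of the log2 fold changes of the 10 members called in TIS CM against Cont CM or of the 29 called in Cont CM against No CM reversed under their 19 alternatives, and fold changes that were not called were not recomputed for this. With no filter more genes shared the adjustment, and the fit of only the 2 groups had fewer libraries. Same-numbered libraries deviated from their group means with correlations between -0.187 and 0.084. The labels do not say whether replicate numbers pair the samples, and these correlations cannot settle it. A member had a median of 81.1 fragments per library, which limits the precision of its fold changes, and the size of change that this depth could detect was not tested.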

Other observations

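The other 2 pairs whose ratio was called in Cont CM against No CM hold antisense genes between 0.5 and 1 FPKM, below the level that chose the members. AC018553.2 had 0.456, 0.446 and 0.503 FPKM in Cont CM, against 0.572, 0.339 and 0.602 FPKM in No CM, and its groups overlapped. Its partner IRX3, a homeobox transcription factor gene, had 3.47, 3.66 and 3.55 FPKM in Cont CM, against 8.48, 8.60 and 8.42 FPKM in No CM. The log2 ratio of AC018553.2 to IRX3 changed by 1.11 (SE 0.16, adjusted p by limma = 0.00872). SEMA3F-AS1 had 0.319, 0.416 and 0.597 FPKM in Cont CM, against 0.563, 0.395 and 0.622 FPKM in No CM, while SEMA3F, which encodes a secreted guidance factor, had 1.19, 1.02 and 1.26 FPKM in Cont CM, against 3.09, 2.73 and 3.21 FPKM in No CM. That log2 ratio changed by 0.96 (SE 0.16, adjusted p by limma = 0.0274). AC018553.2 and SEMA3F-AS1 averaged 0.565 and 0.535 FPKM, near the 0.5 added before taking log2, which damps their own changes. Neither ratio was called at a pseudocount of 0.1 or without Cont CM replicate 3. In both pairs the partner was called lower and the antisense gene was not called. The 413 antisense genes between 0.5 and 1 FPKM had a median of 20.9 fragments per library. In TIS CM against Cont CM 4 of them were called (0.969%), and in TIS CM against No CM 0. In Cont CM against No CM 19 were called (4.60%). Of all genes tested, 4.48%, 0.855% and 16.3% were called in these comparisons, in the same order.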
